A study of Mus musculus with 8 samples.

Results

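The interferon-stimulated genes are a set of 35 mouse genes, listed by name as genes of the type I interferon response. No threshold on measured values enters the list, but earlier results of these data were known when it was drawn up, so its choice was not independent of them. All 35 were listed in the deposited tables, which hold 23432 gene symbols. RNA sequencing of skin epithelium was read in 8 libraries that form 4 groups of 2. The E16.5 groups were embryonic back skin epithelial cells, sorted as live GFP-positive cells by a K14-H2BGFP reporter, from MOF cKO embryos (MOFfl/fl with K14Cre, which recombines in epithelial cells only) and from controls. The P0.5 groups were total epidermis of newborn pups, from Kansl1 cKO animals (Kansl1fl/fl with K14Cre, in which exon 3 of Kansl1 is removed) and from controls. The labels call the control genotype only "Control", the article describes the controls as littermates, and all animals had a mixed C57Bl/6J and CD-1 background. MOF, listed as Kat8, is the acetyltransferase that places the acetyl group on lysine 16 of histone H4, and Kansl1 is a scaffold of 1 of the complexes that hold MOF. Stage, isolation and targeted gene differ together between the E16.5 and P0.5 experiments, so levels of E16.5 and P0.5 groups were set side by side without a test.

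Interferons are secreted proteins that cells release when sensors in the cytoplasm or endosome meet foreign or misplaced nucleic acid. Type I interferon binds the Ifnar1 and Ifnar2 receptor chains, Jak1 and Tyk2 phosphorylate Stat2, and Stat2 joins Irf9 in a complex that binds the interferon-stimulated response element in promoters. The genes switched on through that element include further sensors, enzymes that degrade or modify viral RNA, the ubiquitin-like Isg15 and membrane proteins that hold virus particles at the cell surface. Keratinocytes carry the whole pathway, and so do the macrophages and Langerhans cells that settle in skin before birth.

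Each library held between 9108709 and 27561688 reads counted on genes. All levels are CPM, the count of a gene relative to the size of its library, with sizes scaled by TMM factors over the 8 libraries, and a value is a level unless it is called a log2 fold change. One count was worth between 0.0291 and 0.127 CPM. The whole-gene Kat8 level was 12.9 and 13.0 CPM in the E16.5 controls and 11.6 and 13.1 CPM in the MOF cKO libraries, and the log2 fold change was -0.14 ± 0.18 (SE; adjusted p 0.554 by edgeR's quasi-likelihood test). Counts over a whole gene do not separate a deleted exon from the exons that remain, so the Kat8 level does not check the MOF cKO label. Kansl1 was at 44.9 and 53.1 CPM in the P0.5 controls and at 34.96 and 32.5 CPM in the Kansl1 cKO libraries (log2 fold change -0.52 ± 0.17, adjusted p 0.242). Over the 8 libraries the basal keratin genes stood between 9235.6 and 20336.8 CPM (Krt5) and between 4663 and 11543 CPM (Krt14), so the labelled cell type was present in every library.

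The promoters of the called members that held the response element are shown first, because the element is what ties these genes to Stat2 and Irf9. The search used the core GAAANNGAAA on both strands, in windows of 250 bases before and 50 bases after the RefSeq start of each gene on GRCm38.p6. Windows were given for 26 of the 35 members (30 windows), and no window was used for Dhx58, Zbp1, Oas2, Usp18, Mx1, Mx2, Parp14, Rtp4 and Ifi27l2a. Of these 26 members, 13 (50%) had a match, against 1079 of all 27025 genes with a window (3.99%). With the longer form GAAANNGAAACT, 7 members (26.9%) and 82 of all genes (0.303%) had a match. The core TTCNNNGAA of the gamma-activated site, an element of interferon-gamma response genes, was found in 7 members (26.9%) and in 9.55% of all genes. A match describes the letters in the window and was not read as a bound site. In the sequences below, written 5′ to 3′ on the strand of the gene, capitals mark the matches of the core. The first 3 are the 250 bases before the start, and the last is 30 bases around a match that lies after the start.
Rsad2, chr12:26456453-26456702, minus strand: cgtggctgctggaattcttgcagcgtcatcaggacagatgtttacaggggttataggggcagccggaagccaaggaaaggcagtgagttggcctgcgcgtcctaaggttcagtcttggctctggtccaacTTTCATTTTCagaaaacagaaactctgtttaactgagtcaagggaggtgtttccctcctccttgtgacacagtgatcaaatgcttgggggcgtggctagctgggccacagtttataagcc
Isg15, chr4:156200819-156201068, minus strand: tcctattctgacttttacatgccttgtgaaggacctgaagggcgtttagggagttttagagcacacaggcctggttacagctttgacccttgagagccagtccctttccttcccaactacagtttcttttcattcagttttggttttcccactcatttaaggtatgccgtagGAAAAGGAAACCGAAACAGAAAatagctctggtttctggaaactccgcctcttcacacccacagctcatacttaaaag
Bst2, chr8:71537473-71537722, minus strand: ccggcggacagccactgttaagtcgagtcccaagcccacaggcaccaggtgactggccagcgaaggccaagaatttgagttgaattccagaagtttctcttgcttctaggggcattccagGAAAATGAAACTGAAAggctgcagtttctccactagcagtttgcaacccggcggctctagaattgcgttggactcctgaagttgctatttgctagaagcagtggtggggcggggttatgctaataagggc
Eif2ak2, chr17:78882535-78882564, minus strand: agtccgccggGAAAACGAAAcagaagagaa
Isg15 held 3 overlapping matches and Bst2 held 2, all on the strand of the gene, while Rsad2 held 1 on the opposite strand. Ifi202b, also called in MOF cKO, had a window with no match of the core and 1 match of the gamma-activated site core that starts 148 bases before the start (-148). The core stood in 4 of the 5 called members with a window and in 8 of the 17 tested members that were not called.

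**Figure D1:**
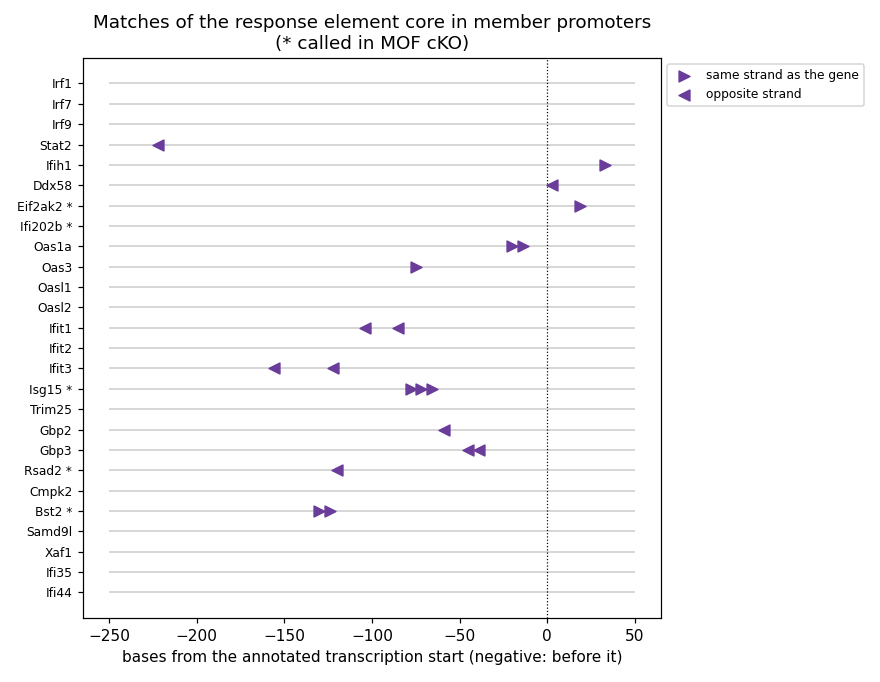
Positions of the response element core in the promoter windows of the 26 members that had one, in bases from the annotated start (x axis, 250 before to 50 after). Each triangle is a match, pointing right on the strand of the gene and left on the opposite strand, and an asterisk marks members called in MOF cKO. Matches stand in 13 of the 26 members, and Isg15 shows 3 next to each other.

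In MOF cKO, 5 members rose and 1 fell. The risers were Ifi202b, Isg15, Usp18, Rsad2 and Bst2, and the member that fell was Eif2ak2. A gene was called when edgeR's quasi-likelihood test over all genes gave an adjusted p of 0.01 or lower and the fold change was over 1.5. Of the 35 members, 30 passed the filter on low counts and were tested, and Oas2, Ifit1, Samd9l, Xaf1 and Ifi44 were not. Over all 13956 genes tested, 10% were called higher and 9.59% lower, the shares against which 5 and 1 of 30 members are to be read. Scaled by library size alone, 769 genes were called higher and 2743 lower, against 1395 and 1338 with TMM, and of the members 4 and 2. Both MOF cKO libraries were above both controls in 18 of the 30 members, against 38.7% of all genes, and below both in 4, against 33.8%. Over all 35 members, 22 lay above, 4 below and 9 overlapped.

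The positive fold changes were unevenly spread over the levels of the members. The median log2 fold change over the 30 members tested was 1.78, against -0.02 over all genes. For the 17 members with a mean of at least 1 CPM over the 4 libraries the median was -0.04, with 8 positive, and for the 13 below 1 CPM it was 3.03, with 12 positive. The filter's cutoff of 0.393 CPM was on library size alone, without TMM factors, so it is not on the scale of the levels given. Of the 30 members, 10 reached this cutoff only in the MOF cKO libraries, 2 of them called (Usp18 and Rsad2). A member that entered the test in that way had to differ, so these medians and counts describe the members that passed and support nothing further.

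**Figure D2:**
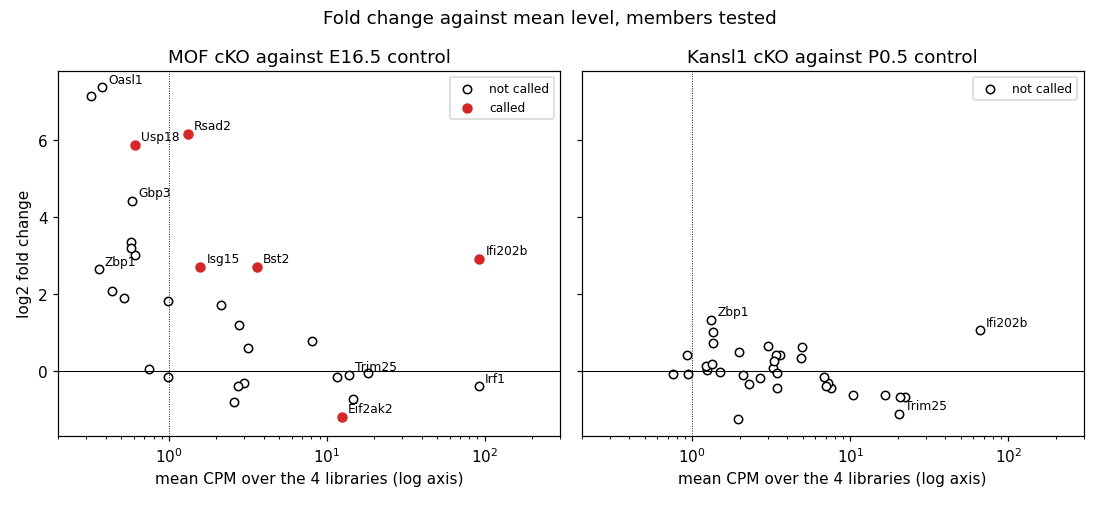
Log2 fold change (y axis) against the mean level in CPM over the 4 libraries of each comparison (x axis, log scale) for the members tested, with called members filled in red and a dotted line at 1 CPM. In MOF cKO the called members Rsad2, Isg15, Bst2, Eif2ak2 and Ifi202b lie to the right of the dotted line and Usp18 to the left, and in Kansl1 cKO no member was called.

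Ifi202b, a member of the p200 family of DNA-binding proteins on chromosome 1 (173962568 to 173982744, minus strand, mm10), had the highest level of all members in MOF cKO. It stood at 17.8 and 23.2 CPM in the controls and at 175.0 and 153.7 CPM in the MOF cKO libraries. The groups were far apart and the libraries of each group close together. Its log2 fold change was 2.93 ± 0.17 (SE, 2 libraries a group), with an adjusted p of 0.000150 by edgeR, and it was called under each of the 11 alternatives run, 4 of which left out 1 library. Per kb of exon it ranked second among the members in the E16.5 controls (12.1 CPM per kb, after Irf1 at 25.5) and first in MOF cKO (96.8 CPM per kb). Its reads may be shared with the other p200 genes next to it, and reads that matched more than 1 place were not counted. The animals had a mixed strain background, and the part of strain differences in the Ifi202b level was not tested.

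The other nucleic acid sensors did not move as a group. Eif2ak2, the kinase PKR that stops translation when it binds double-stranded RNA, stood at 16.3 and 17.9 CPM in the controls and at 6.48 and 9.32 CPM in MOF cKO. Both MOF cKO libraries were below both controls, and the log2 fold change was -1.18 ± 0.22 with an adjusted p of 0.00607 by edgeR. Without MOF cKO replicate 1 the value was -0.96 and the adjusted p 0.0119, so the call was lost. Zbp1, a sensor of left-handed nucleic acid, had 3 counts in each control and 9 and 21 counts in MOF cKO, and its log2 fold change was 2.65 ± 0.94 (adjusted p 0.0603). The RNA helicases Ifih1 (MDA5) and Ddx58 (RIG-I) overlapped between the groups, at 2.53 to 3.96 CPM and 10.1 to 12.6 CPM over the 4 libraries. Dhx58 (LGP2), the third helicase of the family, was higher in both MOF cKO libraries (2.75 and 5.06 CPM) than in the controls (2.53 and 2.37 CPM), with an adjusted p of 0.302.

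Among the members of the Isg15 system, the modifier and its protease rose and Trim25 did not. Isg15 itself, a ubiquitin-like protein that is joined to other proteins during the response, was at 0.407 and 0.384 CPM in the controls and at 2.47 and 3.07 CPM in MOF cKO, from 14 and 12 counts and 53 and 77 counts. The log2 fold change was 2.72 ± 0.57 and the adjusted p 0.00938 by edgeR. Usp18, the protease that removes Isg15 and also damps signalling at Ifnar2, had 1 and 0 counts in the controls and 34 and 21 counts in MOF cKO. It reached the filter's 0.393 CPM only in the MOF cKO libraries, so it had to differ in that direction. The summed counts, scaled for depth, stood in a ratio of 77.6 (95% counting interval 13.4 to 3120.0), and the fitted log2 fold change was 5.89 ± 1.2 (adjusted p 0.00819). Both genes had groups that did not overlap, but neither kept its call when any 1 of the 4 libraries was left out, with adjusted p-values of 0.0163 to 0.0357 for Isg15 and 0.0128 to 0.0439 for Usp18. Trim25, a ubiquitin and Isg15 ligase, stood at 14.1 and 13.7 CPM in the controls and 12.3 and 15.2 CPM in MOF cKO, and the groups overlapped.

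Rsad2 (viperin), an enzyme that makes a chain-ending nucleotide against viral RNA synthesis, had the highest fitted fold change among the 6 called members. Its counting interval overlapped that of Usp18, so their order is not settled. Rsad2 reached the filter's 0.393 CPM only in the MOF cKO libraries, so it had to differ in that direction. It had 2 and 0 counts in the controls and 85 and 31 counts in MOF cKO, a scaled ratio of 81.8 (95% counting interval 22.1 to 683.7). The fitted log2 fold change was 6.16 ± 1.18, with an adjusted p of 0.00641 by edgeR, and without MOF cKO replicate 1, the higher of the pair, it was 5.09 with an adjusted p of 0.0328. Cmpk2, the nucleotide kinase that lies next to Rsad2 on chromosome 12 in the opposite direction (26469204 to 26479837, against 26442746 to 26456452 for Rsad2), did not follow it. Cmpk2 stood at 3.14 and 2.94 CPM in the controls and at 2.0 and 2.87 CPM in MOF cKO (log2 fold change -0.39 ± 0.41, adjusted p 0.484). Bst2 (tetherin), which holds budding virus on the cell membrane, was at 1.08 and 0.735 CPM in the controls and at 6.95 and 5.62 CPM in MOF cKO. Its log2 fold change was 2.71 ± 0.41, the adjusted p was 0.00258, and Bst2 and Ifi202b were the 2 members called under each of the 11 alternatives run.

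The oligoadenylate synthetases, which make the messenger that activates RNase L, lay on chromosome 5, Oas1a, Oas2 and Oas3 in one place (120730333 to 120907521) and Oasl1 and Oasl2 in another (114896936 to 114937915), and were near the floor of detection in the controls. Oas3 and Oasl1 had 0 counts in both controls, and 14 and 16 counts (Oas3) and 11 and 25 counts (Oasl1) in MOF cKO. Against a floor of 3 counts over the control group, Oas3 was at least 14.1-fold higher and Oasl1 at least 16.9-fold higher. Their adjusted p-values were 0.0130 and 0.0124 by edgeR, so neither was called at 0.01. Oas1a had 0 and 6 counts against 17 and 33 (adjusted p of 0.0642), Oasl2 had 11 and 16 against 40 and 32 (adjusted p of 0.0753), and Oas2 had 1 and 0 against 7 and 7 and was not tested. All 5 members of the family had MOF cKO libraries above both controls, against 38.7% of all genes tested, and none was called. Oas1a, Oas3 and Oasl1 reached the filter's 0.393 CPM only in the MOF cKO libraries, so they had to differ in that direction. Oas1a has close copies beside it, so its count is uncertain.

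The Ifit proteins bind viral RNA by its end, and the 3 member genes lie in one region of chromosome 19 (34550694 to 34650009). Ifit3 had 2 and 6 counts in the controls and 36 and 13 counts in MOF cKO (log2 fold change 3.03 ± 1.03, adjusted p of 0.0516 by edgeR), and Ifit1 had 3 and 0 against 6 and 18 and was not tested. Ifit2 was the most abundant of the family in the controls, at 3.46 and 3.0 CPM, and lay at 1.96 and 1.95 CPM in both MOF cKO libraries, with an adjusted p of 0.161. Ifit1 and Ifit3 were thus above their controls and Ifit2 below, with no call for either tested gene.

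Of the GTPases, Mx1 and Gbp3 were closest to a call. Mx1, which traps viral nucleocapsids, had 6 and 1 counts in the controls and 23 and 26 counts in MOF cKO (log2 fold change 3.20 ± 0.96, adjusted p 0.0342 by edgeR). Gbp3, a guanylate-binding protein, had 1 and 2 counts against 16 and 38, a scaled ratio of 25.4 (95% counting interval 8.24 to 127.0) and an adjusted p of 0.0119. Gbp2 had 13 and 1 against 30 and 7 counts and Mx2 had 35 and 13 against 10 and 28 counts, and in both the groups overlapped. The guanylate-binding genes of chromosome 3 are close copies of each other, so their counts are uncertain.

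Among the transcription factors, none was called. Irf1, which interferon-gamma and other signals switch on, was the most abundant member in the E16.5 controls, at 71.1 and 131.9 CPM, and stood at 80.1 and 83.0 CPM in MOF cKO. The MOF cKO libraries lay between the controls, and the log2 fold change of -0.39 ± 0.26 became -0.77 (adjusted p of 0.00141, called lower) without control replicate 1 and 0.13 without control replicate 2. Irf7, which drives the genes of interferon-alpha, was at 0.465 and 1.44 CPM in the controls and at 2.66 and 3.95 CPM in MOF cKO (log2 fold change 1.72 ± 0.64, adjusted p 0.0700). Stat2 was lower in both MOF cKO libraries (9.93 and 12.8 CPM) than in the controls (15.6 and 20.04 CPM), with an adjusted p of 0.0324, and Irf9 overlapped at 16.6 to 20.3 CPM over the 4 libraries. Stat2 and Irf9, which belong to the complex that binds the response element, were thus well above 1 CPM in the E16.5 controls, where 9 other members had at most 3 counts in each library.

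The remaining effectors had no further call. Ifi35 stood at 5.47 and 5.91 CPM in the controls and at 10.6 and 10.2 CPM in MOF cKO (log2 fold change 0.80 ± 0.23, adjusted p of 0.0290 by edgeR). Parp14, which attaches ADP-ribose to proteins, was at 1.66 and 1.63 CPM against 4.01 and 3.91 CPM (adjusted p of 0.0501). Rtp4 and Xaf1 had 1 to 9 counts in each control, Samd9l and Ifi44 had 11 counts or fewer in each E16.5 library, and Ifi27l2a overlapped between the groups at 0.717 to 1.21 CPM.

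**Figure D3:**
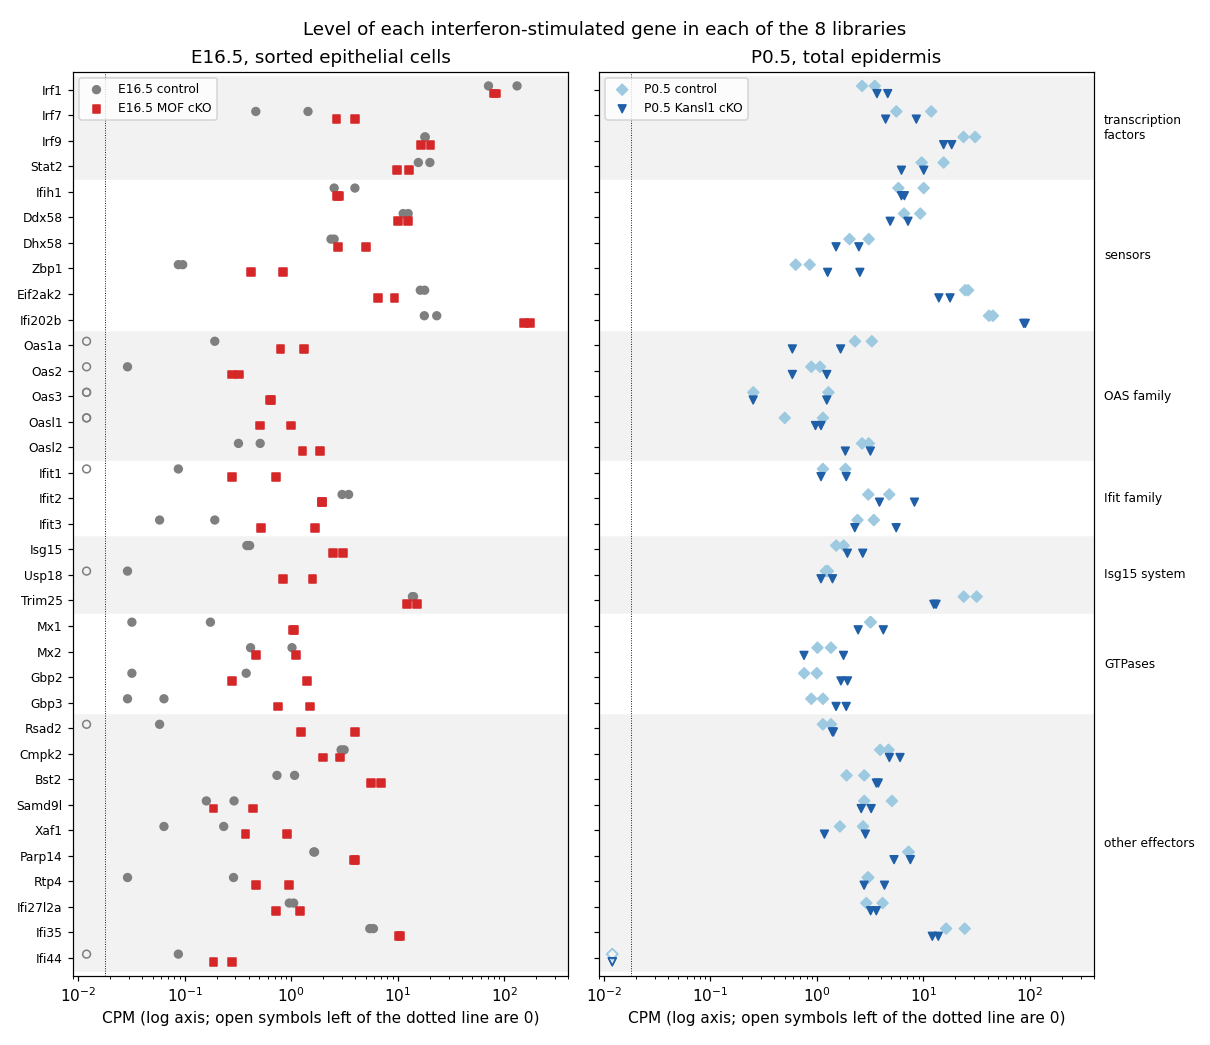
Level of each of the 35 members (rows, by role) in each library in CPM (x axis, log scale), for the E16.5 groups on the left and the P0.5 groups on the right; open symbols left of the dotted line are libraries with 0 counts. In the E16.5 controls many members lie under 1 CPM and the MOF cKO squares to their right, whereas the P0.5 groups lie close together, with Ifi202b the clearest gap.

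In Kansl1 cKO, no member was called in either direction. Of the 35 members, 34 were tested and Ifi44 had 0 counts in all 4 P0.5 libraries. Over all 13031 genes tested, 0% were called higher and 0% lower by edgeR, with a smallest adjusted p of 0.110 and 2045 genes at an unadjusted p under 0.05, while DESeq2 called 35 genes higher and 55 lower. The members' median log2 fold change was -0.03, against 0.01 over all genes, with 16 positive and 18 negative. Both Kansl1 cKO libraries were above both controls in 9 members, against 23.5% of all genes, and below both in 5, against 24.4%.

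Ifi202b had the smallest unadjusted p among the members by edgeR, with Trim25 next. It was at 44.9 and 41.3 CPM in the P0.5 controls and at 87.5 and 90.5 CPM in the Kansl1 cKO libraries. The 2 groups did not overlap, and per kb of exon Ifi202b ranked first in both (25.4 and 52.4 CPM per kb). Its log2 fold change was 1.07 ± 0.16, with an unadjusted p of 0.000263 and an adjusted p of 0.176 by edgeR, so it was not called. Melanocyte, macrophage and T cell markers were also above their controls in this comparison, as given with the marker lists. Neither their part in the Ifi202b difference nor that of strain differences in the mixed background was tested. DESeq2 gave an adjusted p of 0.000541 and called it, and so did edgeR without Kansl1 cKO replicate 1 (0.00352) and without Kansl1 cKO replicate 2 (0.00409).

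The members with an unadjusted p under 0.05 besides Ifi202b were Zbp1 above its controls and Irf9, Eif2ak2, Trim25 and Ifi35 below theirs. Trim25 was at 23.9 and 31.6 CPM in the controls and at 13.1 and 12.5 CPM in the knockout (log2 fold change -1.10 ± 0.21, adjusted p 0.177 by edgeR). Eif2ak2, which fell in MOF cKO, was at 24.7 and 26.3 CPM in the P0.5 controls and at 17.8 and 14.0 CPM in the knockout (log2 fold change -0.66 ± 0.19, adjusted p 0.223). Zbp1 had a log2 fold change of 1.34 ± 0.54 (adjusted p of 0.307), Irf9 of -0.67 ± 0.20 (0.232) and Ifi35 of -0.62 ± 0.25 (0.309). The direction of Ifi35 was thus opposite to its direction in MOF cKO, with no call in either comparison.

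The other members that rose in MOF cKO showed smaller differences in Kansl1 cKO. Isg15 was at 1.52 and 1.78 CPM in the P0.5 controls and at 2.69 and 1.93 CPM in Kansl1 cKO (log2 fold change 0.50 ± 0.42). Bst2 was at 1.90 and 2.78 CPM and at 3.77 and 3.62 CPM (0.65 ± 0.37), Rsad2 at 1.14 and 1.36 CPM and at 1.40 and 1.43 CPM (0.18 ± 0.45), and Usp18 at 1.27 and 1.21 CPM and at 1.40 and 1.09 CPM (0.04 ± 0.46). Isg15, Bst2 and Rsad2 were above their controls in both libraries and Usp18 overlapped.

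**Figure D4:**
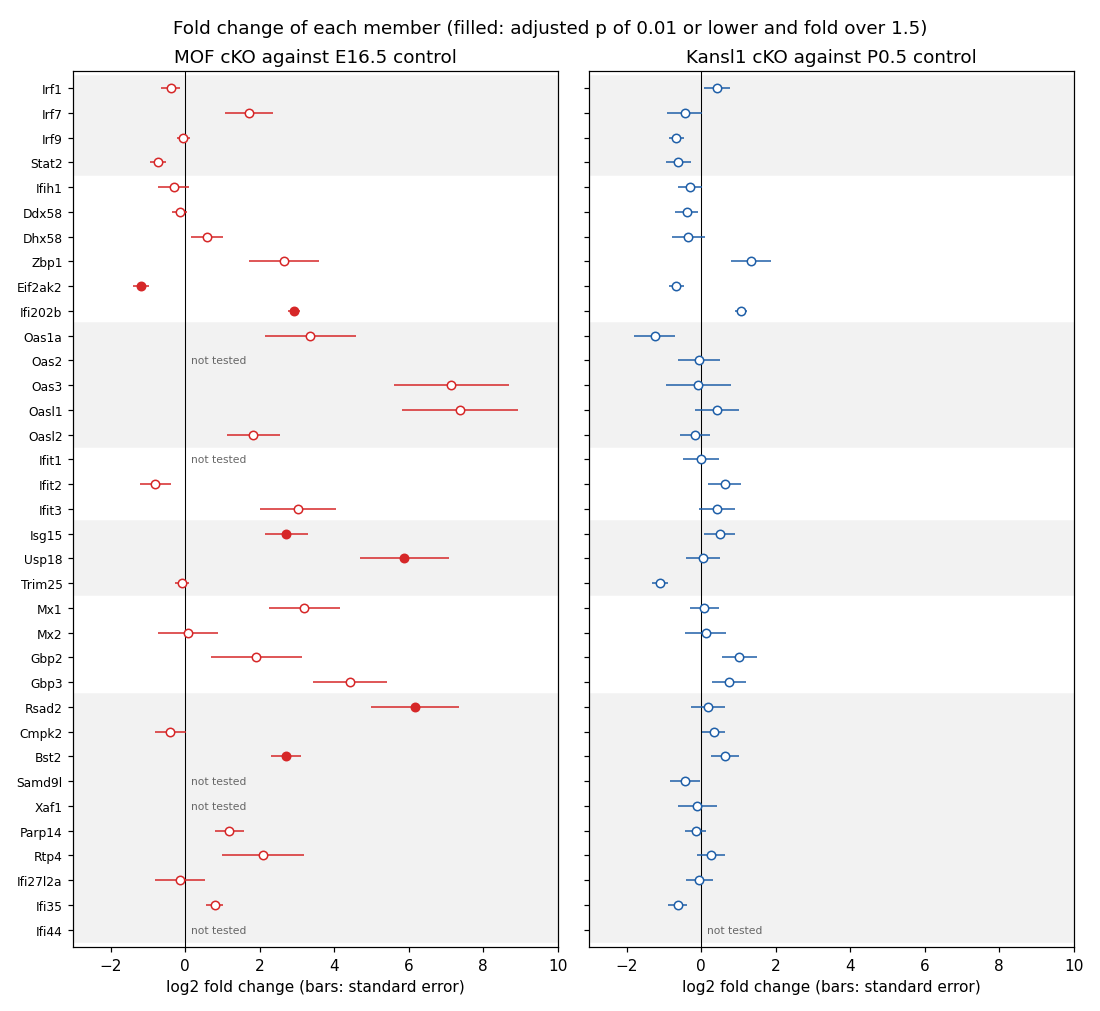
Log2 fold change of each member (points) with its standard error (bars) in MOF cKO on the left and Kansl1 cKO on the right, rows by role; filled points were called. The 6 filled points are all in MOF cKO. The points of Oas3 and Oasl1 on the left are fitted over controls with 0 counts, so their positions give no size. Those of Rsad2 and Usp18 rest on very few control counts, so their sizes are loose.

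The difference between the MOF and Kansl1 effects was tested gene by gene in 1 fit over the 8 libraries, each effect taken against its own controls. Of 34 members tested, Ifi202b alone passed, with a MOF effect larger by 1.83 ± 0.23 on the log2 scale and an adjusted p of 0.00353 by edgeR. Over all 14565 genes, 1.76% had a higher and 1.17% a lower MOF effect. Of the other members called in MOF cKO, the differences were 5.88 ± 1.27 for Rsad2 (adjusted p of 0.0189), 5.71 ± 1.22 for Usp18 (0.0181), 2.03 ± 0.54 for Bst2 (0.0400), 2.19 ± 0.67 for Isg15 (0.0582) and -0.55 ± 0.31 for Eif2ak2 (0.253). The call on Ifi202b was lost without E16.5 control replicate 1 (adjusted p of 0.0119), without MOF cKO replicate 1 (0.0128) and without P0.5 control replicate 1 (0.0128).

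Many members were near zero in the E16.5 controls. There, 9 members had at most 3 counts in each library, namely Zbp1, Oas2, Oas3, Oasl1, Ifit1, Usp18, Gbp3, Rsad2 and Ifi44. No member was that low in MOF cKO, and Ifi44 alone was in the P0.5 controls and in Kansl1 cKO. The summed level of the 35 members was 190.0 and 261.6 CPM in the E16.5 controls, 371.0 and 356.1 CPM in MOF cKO, 221.6 and 260.2 CPM in the P0.5 controls and 256.6 and 225.4 CPM in Kansl1 cKO. Without Irf1 and Ifi202b, left out after their values were seen, the sums were 101.1 and 106.5, 115.9 and 119.3, 174.0 and 215.4, and 165.4 and 130.3 CPM in the same order. Ifi202b thus made up most of the higher sum in MOF cKO. Irf1 stood at 2.66 to 4.62 CPM over the 4 P0.5 libraries, against 71.1 or more in each E16.5 library.

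Interferon itself was close to absent from the counts. All 20 interferon ligand genes listed (the alpha, beta, gamma, kappa, epsilon and lambda genes among them) had at most 3 counts in every library, 18 of them 0 in each group, and none was tested. At these depths 3 counts correspond to at most 0.380 CPM in a library. Reads that matched more than 1 place were not counted, so ligand genes that are close copies of each other may be undercounted. The receptors were measured well. Ifnar1 was at 42.9 to 69.0 CPM over the 8 libraries and Ifnar2 at 16.8 to 25.7 CPM, with no call. Of the 10 receptor and JAK-STAT genes, 2 rose in MOF cKO and none fell, against 10% and 9.59% of all genes tested. The 2 were Il10rb, a chain of the lambda interferon and interleukin 10 receptors (log2 fold change 1.49, adjusted p of 0.000773 by edgeR), and Ifngr2, a chain of the interferon-gamma receptor (0.67, 0.00485).

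Over all 10 lists of other pathway genes, 96 of the 130 listed were tested in MOF cKO, and 13 rose (13.5%) and 5 fell (5.21%). Over all genes tested the shares were 10% and 9.59%, so the counts of these lists are given as a description and nothing particular to the pathway is read from them. The p200 family, to which Ifi202b belongs, had 2 of 6 tested members higher and none lower. Pyhin1 had 0 counts in both controls and 21 and 37 in MOF cKO, at least 27.3-fold higher, and Ifi203 had 6 and 0 against 61 and 74 (adjusted p of 0.00895 by edgeR). Of 36 other type I response genes 6 rose and 2 fell. Slfn2 had 0 counts in both controls and 98 and 129 in MOF cKO, at least 106.8-fold higher. Pyhin1, Ifi203 and Slfn2 were below the filter's 0.393 CPM in both controls. They entered the test only through the MOF cKO libraries and had to differ, so their calls describe genes that passed. Ifitm3, which blocks virus entry, went from 83.1 and 75.2 CPM to 283.3 and 236.9 CPM. Trim21, an antibody receptor in the cytosol, fell from 91 and 103 counts to 11 and 4. Of the sensing adaptors, Ikbke rose and Mavs, the adaptor of Ifih1 and Ddx58, fell (log2 fold change -1.16, adjusted p of 0.00369). Of the 7 clearance and editing genes, Samhd1 and the RNA editor Adar fell (log2 fold changes -1.07 and -0.93) and none rose. Of the Socs feedback inhibitors Cish rose, 1 of 15 interferon-gamma response genes rose, and none of the other Irf genes (5 tested) or the other Isg15 cascade genes (3 tested) was called. In Kansl1 cKO none of the 96 pathway genes tested was called.

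Markers of macrophages, which also express interferon-stimulated genes, moved with the MOF comparison. Of 19 macrophage markers tested, 11 were called higher in MOF cKO and none lower, against 10% and 9.59% of all genes tested. All of the 11 except Csf1r and Cd14 were below the filter's 0.393 CPM in both controls, Adgre1 among them. Such markers entered the test only through the MOF cKO libraries and had to differ, so the count describes the markers that passed. The sum over the 20 markers was 21.6 and 44.0 CPM in the E16.5 controls, 128.2 and 163.6 CPM in MOF cKO, 328.3 and 358.6 CPM in the P0.5 controls and 462.4 and 473.9 CPM in Kansl1 cKO. The first defining gene, Adgre1 (listed as Emr1), went from 0.0582 and 0.192 CPM to 6.57 and 3.59 CPM, while Cd68 overlapped at 16.1 to 48.8 CPM. Of the other lists, 1 of 5 endothelial markers was called higher and none of the 7 fibroblast or 6 melanocyte markers was called. Fibroblast markers nevertheless lay higher in MOF cKO, with 6 of 7 above both controls at an unadjusted p under 0.05 by edgeR. Of all genes tested, 38.7% were above both controls. The fibroblast markers had a median log2 fold change of 1.03, and sums of 817.7 and 1373.6 CPM in the controls against 1430.7 and 2023.0 CPM. In Kansl1 cKO, where edgeR called no gene at all, marker lists were apart from their controls as well. Of all genes tested there, 23.5% were above both controls and 24.4% below both. All 6 melanocyte markers were above both controls with an unadjusted p under 0.05 (median log2 fold change 1.13), and their sum was 509.5 and 561.0 CPM in the controls and 1091.3 and 1177.0 CPM in the knockout. Of 5 T cell markers 4 were above both controls and of 19 macrophage markers tested 12 were, whereas 6 of 7 fibroblast markers were below both (sums of 1930.9 and 1204.7 CPM against 1029.8 and 785.96 CPM). No melanocyte, T cell, macrophage or fibroblast marker reached the call in Kansl1 cKO. The T cell genes Cd3d and Cd3g had 0 counts in all E16.5 libraries, and the Langerhans cell gene Cd207 had at most 3 counts in every library. The part of these marker lists in the members' differences was not tested, and in these bulk libraries more cells of a type and more RNA per cell cannot be told apart. The differentiation keratins Krt1 and Krt10 were also called higher in MOF cKO, and their part was not tested either.

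**Figure D5:**
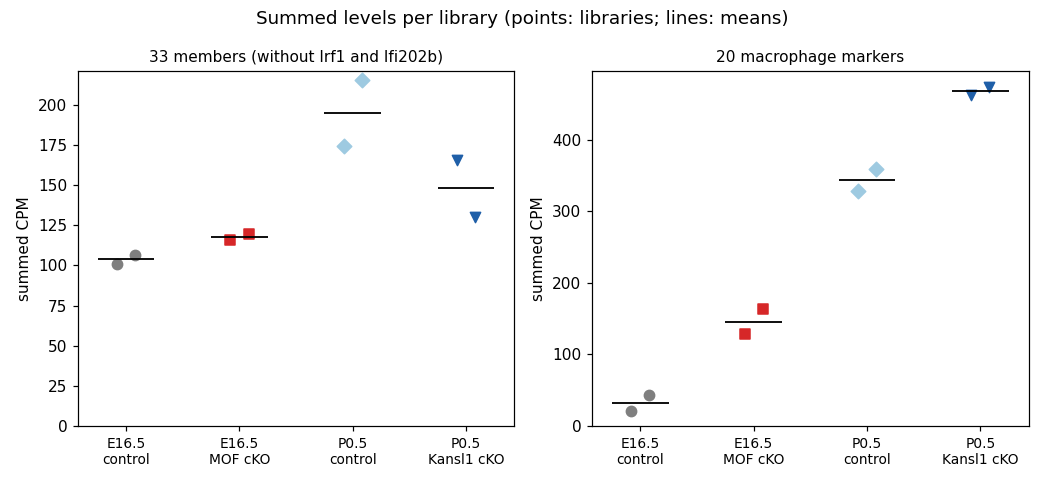
Summed level in CPM (y axis, from 0) of the 33 members other than Irf1 and Ifi202b on the left and of the 20 macrophage markers on the right, in each library (points) with the mean of each group (lines). The marker sum rises from the E16.5 controls (21.6 and 44.0 CPM) to MOF cKO (128.2 and 163.6 CPM), and the member sum changes from 101.1 and 106.5 to 115.9 and 119.3 CPM.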

How the data were processed

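RNA was sequenced as polyadenylated, strand-marked paired-end libraries. The authors aligned reads to mm10 with HISAT2 per the article, or TopHat2 per the submitters' processing notes, and counted them per gene with HTSeq; the deposited values are raw counts per gene symbol in 1 file a library. The annotation and the strand setting are not given in the sources used here. Rows that name no gene held 21.1% to 26.0% of each library's entries and were left out.

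The 35 members and all gene lists were chosen with earlier results of these data known. Each knockout was compared with its own controls (2 libraries each) by the quasi-likelihood test of edgeR 4.0.16 in R 4.3.3 after filterByExpr and TMM scaling, with Benjamini-Hochberg adjustment over all genes tested. The scripts were tested on simulated data. There, simulated 4-fold changes were called in 83.7% (MOF), 78.6% (Kansl1) and 50% (difference of the effects) of cases. For 2-fold changes the shares were 52.5%, 12% and 3.09%, so changes of that size can be missed. Nothing in the labels states that libraries came from separate animals, so p-values measure the spread between these libraries, which may be technical. CPM values used TMM factors over 8 libraries, and folds against 0 counts used a floor of 3 counts over the group, which covers counting error only. Positions are from GENCODE M21 (mm10) and promoter windows from RefSeq GRCm38.p6; the last 40 bases of 25 of the 30 member windows lay in a GENCODE transcript of the gene. All members were named, and of the other lists the called genes, at most 4 a list. Alternatives were DESeq2 1.42.0, 2 other scalings, every gene with a count, an adjusted p of 0.05, a replicate block, 1 fit over 8 libraries and leaving out each library.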

Additional observations from a re-analysis of the deposited data

Results flagged for a closer look

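Ifi202b was the 1 member of 34 tested that passed the test of the difference between the knockouts. Its log2 fold change was 2.93 in MOF cKO and 1.07 in Kansl1 cKO, each against its own controls, and in the joint fit the difference was 1.83 ± 0.23 (SE) with an adjusted p of 0.00353 by edgeR's quasi-likelihood test. The call was lost without E16.5 control replicate 1 (adjusted p of 0.0119 by edgeR), without MOF cKO replicate 1 (0.0128) and without P0.5 control replicate 1 (0.0128). The MOF cKO libraries were higher than their controls in 2 of 2 cases, and so were the Kansl1 cKO libraries. Stage and isolation differ between the experiments as well as the targeted gene, and their parts in the difference cannot be told apart. The part of strain differences in the mixed background was not tested. Groups of 2 libraries were too small to look for single outlying samples.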

How the results depend on the processing

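In MOF cKO, the 5 members called higher became 8 with DESeq2, 10 at an adjusted p of 0.05, 8 in 1 fit over all 8 libraries, and 2 to 3 when 1 library was left out. The first 5 were among those called under DESeq2, the 0.05 threshold and the fit over 8 libraries, and without a library Ifi202b and Bst2 always remained. The 1 member called lower became 2 with library size alone, with every gene that had a count and at 0.05, the second being Stat2, and 0 to 2 when 1 library was left out. Library size alone moved the median of all genes from -0.02 to -0.32 and ended the call on Isg15 (adjusted p of 0.0133 by edgeR). The members' median of 1.78 was 1.21 to 1.52 without 1 library, -0.042 for the members at or above 1 CPM and 3.03 for those below, a split chosen after seeing the data; setting the members at 0 in both controls to their bound left it at 1.78. In Kansl1 cKO, 1 member (Ifi202b) was called higher with DESeq2 and with every gene that had a count, and 0 to 1 without 1 library, and 1 member (Trim25) was called lower with every gene that had a count. The members whose effects differed, 1 as reported, became 5 with DESeq2, 5 with every gene that had a count, 7 at 0.05 and 0 to 1 without 1 library. With at most 10 counts as near zero, 15 members were so in the E16.5 controls, 2 in MOF cKO and 2 in the P0.5 controls, and the longer motif matched 7 members. The 13 pathway genes called higher in MOF cKO became 20 with DESeq2, 7 with library size alone and 23 at 0.05; the 5 lower became 8, 11 and 9, and 10 with every gene that had a count. The sign turned under at least 1 alternative in 7 of 30 members in MOF cKO, 17 of 34 in Kansl1 cKO and 6 of 34 in the test of the difference, none of them called as reported. Mx2 in MOF cKO (-0.68 to 0.84) and Oas3 in Kansl1 cKO (-1.66 to 1.60) are examples. Others were Irf1 in MOF cKO (-0.77 to 0.13 without 1 library), Irf9 in MOF cKO (-0.21 to 0.11) and Usp18 in Kansl1 cKO (-0.16 to 0.17, and -0.0052 with library size alone). The cause of these changes was not tested.

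With the replicate number as a block (replicate block), 10 members were called higher and 2 lower in MOF cKO, 0 in either direction in Kansl1 cKO, 0 in the test of the difference (Ifi202b at an adjusted p of 0.0277 by edgeR), and 10 pathway genes lower in MOF cKO. The article speaks of pairs of samples but neither it nor the labels say what a number shares, and deviations of same-numbered libraries correlated at 0.272 (MOF) and -0.290 (Kansl1) across genes. With the Kansl1 numbers crossed, an alternative added after seeing the data, 0 members were called.

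Depth limits what can be said of members with a few counts, where 1 library can decide a call, and 2 libraries a group limit every p-value.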
